A study of Mus musculus with 6 samples.

Results

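The 10 genes described here restrain ERK or related MAP kinases, and their transcripts were measured in mouse 3T3 cells given baicalin or its solvent. They encode 5 dual-specificity MAP kinase phosphatases (Dusp1, Dusp4, Dusp5, Dusp6 and Dusp10), 3 Sprouty proteins (Spry1, Spry2 and Spry4) and 2 Spred proteins (Spred1 and Spred2). They were found by gene name, each in 1 row, in a table of 54532 genes, and all 10 were among the 13728 genes with enough reads to test. 3T3 is a mouse fibroblast line, and the labels call these cells wild-type adipocytes without saying which subline was used or how fat cells were made. Libraries of poly-A RNA came from 3 samples given DMSO and 3 given 200 µM baicalin, a flavonoid of skullcap roots, for a time not given in the sources used here. The comparison asks how the compound alters transcript levels. The sources do not state that replicates were grown as separate cultures, so the p-values measure the spread among these samples alone, and that spread could be technical.

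ERK is the last kinase of a relay that runs from receptor tyrosine kinases through RAS, RAF and MEK to transcription factors. The relay switches on its own brakes: many of the genes it induces encode proteins that shut it off again. Dual-specificity phosphatases remove both phosphates from the activation loop of MAP kinases, some in the nucleus and some in the cytoplasm. Sprouty and Spred proteins act further upstream, between the receptors and RAF. In fibroblasts and in cells turning into fat cells, ERK signalling follows growth factors and insulin.

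Library totals lay between 16730594 and 18326874 counts. For a gene without reads the 95% upper limit of the expected count is about 3. That corresponds to at most 0.180 CPM (counts scaled to library size and TMM factor). That limit covers counting error alone. Libraries of the same treatment varied beyond counting noise (chi-square over its degrees of freedom 2.71 to 4.13). The 7 fat cell markers gave a mixed picture of the label. In DMSO the fatty acid carrier gene Fabp4 stood at 429.7 ± 37.9 CPM, Plin1 at 18.9 ± 2.79, Pparg at 17.6 ± 1.57 and Cidec at 5.28 ± 1.45 CPM (SD, n = 3). Adipoq had 90 reads over the 3 DMSO libraries, Slc2a4 had 5 and Lep had 2, and in baicalin these had 7, 1 and 0. The 5 markers with enough reads to test, all but Slc2a4 and Lep, were lower in baicalin, and the summed level of the list, most of it Fabp4, ran from 446 to 521 CPM in DMSO and from 312 to 324.5 CPM in baicalin. Of 7 fibroblast markers 2 were higher and 5 lower. For both lists, the shares over all tested genes were 33.6% higher and 34.1% lower. The summed level of the fibroblast list was 14954 to 15535 CPM in DMSO and 11673 to 12052 CPM in baicalin. The 6 immune markers summed to 1.03 to 1.60 CPM in DMSO and 1.98 to 3.79 CPM in baicalin, nearly all from Cd68, and the 6 endothelial and epithelial markers reached at most 0.438 CPM, with no read for Epcam, Cdh1 and Krt14. The part of these shifts in the results below was not tested, and in bulk RNA fewer cells of a kind and less RNA per cell cannot be told apart.

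Of the 10 feedback genes, 6 rose in baicalin, namely Dusp1, Dusp4, Dusp6, Dusp10, Spred1 and Spred2. Spry4 fell, and Dusp5, Spry1 and Spry2 were not called (edgeR's quasi-likelihood test across all genes, Benjamini-Hochberg adjusted p under 0.05). The share of all tested genes that were called is 67.7%, so 7 called genes of 10 is close to the background. Over all genes 33.6% were called higher (4618) and 34.1% lower (4676). With scaling by library size alone, which moves the median gene to -0.13, these counts were 3472 and 5811. For 6 of the 10 every library of one treatment lay beyond every library of the other, against 70.2% of all tested genes. The median log2 fold change was 0.32 over the 10 genes and 0.0014 over all tested genes. With trends on transcript length and GC content removed from each library these medians were 0.14 and -0.00067. With library size alone they were 0.20 and -0.13. Sizes differed widely within the set. Dusp4 rose 3.10-fold and was the only one of the 10 past 2-fold, a mark reached by 5.24% of all genes on the higher side.

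**Figure D1:**
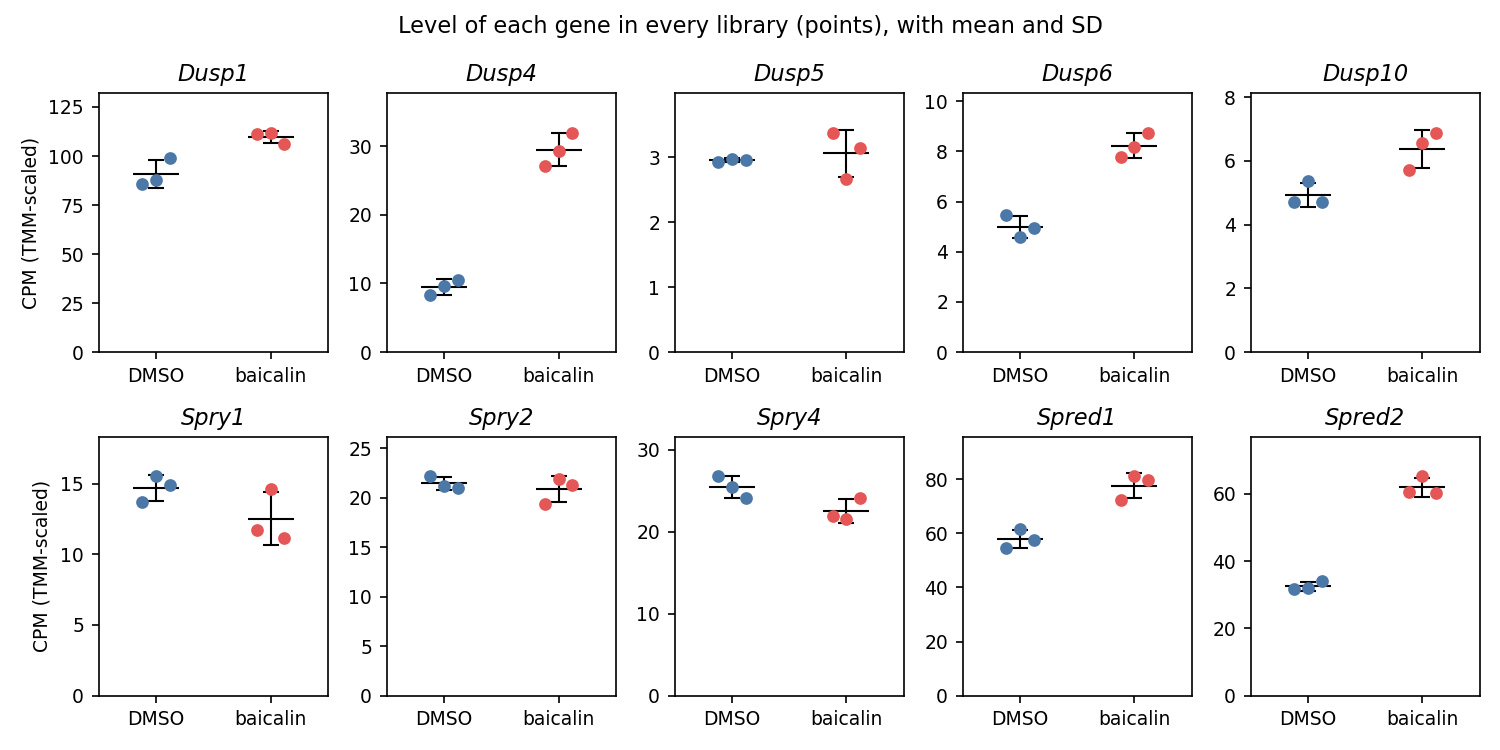
CPM scaled by TMM factors (vertical axis, from 0) in each of the 3 DMSO and 3 baicalin libraries, 1 panel per gene, with points for libraries and black bars for the mean and SD. Dusp4, Dusp6, Spred1 and Spred2 show a clear gap between the groups, whereas the points of Dusp5, Spry1, Spry2 and Spry4 overlap.

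The nuclear phosphatase Dusp4 (ENSMUSG00000031530, mm10 chromosome 8, 34807297 to 34819894) showed the largest response of the 10. Also called MKP-2, it acts on ERK and JNK. Its level was 8.34, 9.61 and 10.6 CPM in the DMSO libraries and 27.1, 29.3 and 31.9 CPM in the baicalin libraries. Every baicalin library stood more than 2-fold above every DMSO library. The group means were 9.51 ± 1.12 and 29.5 ± 2.39 CPM (SD, n = 3 each), which is a log2 fold change of 1.63 (SE 0.095, edgeR adjusted p = 2.15e-21). By size this was rank 284 among the rises of all 13728 tested genes.

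Dusp6 (ENSMUSG00000019960, chromosome 10, 99263231 to 99267489), also known as MKP-3, is the cytoplasmic phosphatase that is selective for ERK, and its transcript is widely used as a readout of ERK activity. It had 5.47, 4.58 and 4.93 CPM in DMSO and 7.76, 8.19 and 8.74 CPM in baicalin. The lowest baicalin library was above the highest DMSO library. The rise was 1.65-fold (log2 fold change 0.72, SE 0.15, edgeR adjusted p = 2.1e-05).

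Dusp5 (ENSMUSG00000034765, chromosome 19, 53529109 to 53542431), the nuclear phosphatase selective for ERK, was the lowest of the 10 and was not called. It had 54, 52 and 54 reads in DMSO and 56, 47 and 54 reads in baicalin, which are 2.93, 2.97 and 2.96 CPM against 3.37, 2.66 and 3.15 CPM. The baicalin libraries lay on both sides of the DMSO libraries. The log2 fold change was 0.048 (edgeR adjusted p = 0.855), and its 95% interval reached from 0.766-fold to 1.39-fold, which leaves out a change of the size seen for Dusp6 (1.65-fold).

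Dusp1 (ENSMUSG00000024190, chromosome 17, 26505590 to 26562128), or MKP-1, is an immediate early gene whose nuclear product acts on p38, JNK and ERK. It was by far the most abundant of the 10, with 85.6, 87.6 and 99.1 CPM in DMSO and 111, 112 and 106 CPM in baicalin. The groups did not overlap, but DMSO replicate 3 came close to the lowest baicalin library. The rise of 1.21-fold (log2 fold change 0.27, SE 0.049, edgeR adjusted p = 3.79e-06) was the smallest of the 6. With trends on transcript length and GC content removed from each library it was 0.056 and not called (adjusted p = 0.288). Dusp1 and Ergic1, a gene on the other strand, have 11 bp of annotated exon in common, and Ergic1 had more reads (39832 against 10568 over all libraries).

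Dusp10 (ENSMUSG00000039384, chromosome 1, 184013302 to 184075636), or MKP-5, prefers p38 and JNK over ERK. Its level was 4.71, 5.38 and 4.71 CPM in DMSO and 5.72, 6.55 and 6.87 CPM in baicalin. The groups were separate by a narrow margin. The rise was 1.30-fold (log2 fold change 0.37, SE 0.16, edgeR adjusted p = 0.031). Leaving out single libraries ended this call in 4 of 6 cases, with an edgeR adjusted p of 0.0862 when DMSO replicate 1 was dropped, 0.0792 for DMSO replicate 3, 0.062 for baicalin replicate 2 and 0.103 for baicalin replicate 3. DESeq2 (adjusted p = 0.115) and scaling by library size alone (0.161) did not call Dusp10 either.

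Promoters of the phosphatase genes that respond to known signals are shown next, since Dusp1, Dusp5 and Dusp6 are all textbook targets of growth factor signalling and only Dusp1 and Dusp6 were called here. RefSeq promoter sequence (GRCm38.p6, 250 bases before to 50 after the annotated start) was examined for 8 of the 10 genes. Dusp4 and Spry4 were not included. Sequences are printed 5′ to 3′ on the strand of the gene, and capitals mark matches on either strand to any of 9 motifs.
Dusp1 promoter, chr17:26508423-26508722, minus strand: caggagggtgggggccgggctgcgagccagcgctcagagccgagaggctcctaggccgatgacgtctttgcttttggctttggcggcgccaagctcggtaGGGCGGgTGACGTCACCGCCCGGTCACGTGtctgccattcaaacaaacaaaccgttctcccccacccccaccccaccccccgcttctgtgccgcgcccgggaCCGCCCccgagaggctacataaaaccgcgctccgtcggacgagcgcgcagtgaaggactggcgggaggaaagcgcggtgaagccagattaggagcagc
Dusp5 promoter, chr19:53528895-53529194, plus strand: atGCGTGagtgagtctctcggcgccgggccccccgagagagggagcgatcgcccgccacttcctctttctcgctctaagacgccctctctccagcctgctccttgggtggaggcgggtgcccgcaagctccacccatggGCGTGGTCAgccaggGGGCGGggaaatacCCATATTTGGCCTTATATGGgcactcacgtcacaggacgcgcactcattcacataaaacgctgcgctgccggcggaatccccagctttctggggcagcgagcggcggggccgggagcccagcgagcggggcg
Dusp6 promoter, chr10:99262981-99263280, plus strand: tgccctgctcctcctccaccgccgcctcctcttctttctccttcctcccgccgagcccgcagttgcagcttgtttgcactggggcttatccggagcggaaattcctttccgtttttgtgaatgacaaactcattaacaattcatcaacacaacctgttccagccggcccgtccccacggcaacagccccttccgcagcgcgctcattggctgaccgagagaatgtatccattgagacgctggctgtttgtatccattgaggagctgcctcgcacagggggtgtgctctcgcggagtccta

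In the Dusp1 window a cyclic AMP response element (CRE, TGACGTCA, present in 1.79% of the 32851 promoters in the table) lay 143 to 136 bases before the start. It stood between GC boxes (GGGCGG, in 35.7% of promoters), next to an E-box (CACGTG, in 7.15%). Dusp1 was the only one of the 8 with the CRE letters or the E-box letters. The Dusp5 window held 2 adjacent matches to the CArG box, the element bound by serum response factor, from 82 to 63 bases before the start. That motif was found in 1.63% of all promoters and in no other of the 8 windows. The Dusp6 window had no match to any of the 9 motifs. Letters of the antioxidant response element (TGACNNNGC, in 12.4% of promoters) occurred in Dusp1, where they overlap a GC box and the E-box, and in Dusp5, where they contain a match to the dioxin response element (GCGTG, in 32.4%). The latter core was present in 5 of the 8 windows and the GC box in 6. AP-1 sites (TGANTCA, in 7.81%), ETS sites (CCGGAAGT, in 3.89%) and the TATA box (TATAAA, in 13.6%) were matched in 0 of the 8 windows. All 8 windows had a higher GC content than the median promoter (52.7%), from 57.0% in Spred2 to 72.3% in Spred1. A match is a description of letters and does not show that a factor binds.

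None of the 3 Sprouty transcripts was called higher. Sprouty proteins are inducible antagonists of receptor tyrosine kinases that act on the steps leading to RAS and RAF. Spry2 (ENSMUSG00000022114, chromosome 14, 105891947 to 105896819), which binds the ubiquitin ligase CBL, had 22.2, 21.2 and 20.99 CPM in DMSO and 19.4, 21.9 and 21.3 CPM in baicalin. The groups overlapped, and the log2 fold change of -0.040 was not called (edgeR adjusted p = 0.684). The 95% interval of 0.866-fold to 1.09-fold was narrower than that of Dusp5.

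Spry1 (ENSMUSG00000037211, chromosome 3, 37639947 to 37644598), known in the mouse for restraining GDNF signalling in the developing kidney, had 13.7, 15.5 and 14.9 CPM in DMSO and 11.7, 14.6 and 11.1 CPM in baicalin. Baicalin replicate 2 stood within the DMSO range and the other two baicalin libraries below it. Spry1 had a log2 fold change of -0.23 (SE 0.11) that missed the threshold (edgeR adjusted p = 0.0524). Without baicalin replicate 2 it was -0.35 and called (adjusted p = 0.00778). It was also called without DMSO replicate 1 (-0.28, adjusted p = 0.0456) and with length and GC trends removed (-0.49, adjusted p = 5.32e-05).

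Spry4 (ENSMUSG00000024427, chromosome 18, 38586247 to 38601415) had 26.8, 25.5 and 24.1 CPM in DMSO and 21.97, 21.5 and 24.2 CPM in baicalin. Baicalin replicate 3 reached the level of the lowest DMSO library, so the groups overlapped. The fall was 1.13-fold (log2 fold change -0.17, SE 0.080, edgeR adjusted p = 0.0482). Spry4 was no longer called when DMSO replicate 1 was dropped (edgeR adjusted p = 0.207), nor on dropping DMSO replicate 2 (0.0931), baicalin replicate 1 (0.136) or baicalin replicate 2 (0.208). DESeq2 did not call it either (adjusted p = 0.215).

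Both Spred genes rose. Spred proteins carry a Sprouty-like domain and bring the RAS GTPase-activating protein neurofibromin to the membrane. In people, loss of one copy of SPRED1 causes Legius syndrome, a relative of neurofibromatosis. Spred2 (ENSMUSG00000045671, chromosome 11, 19924375 to 20024026) had 31.7, 31.9 and 34.1 CPM in DMSO and 60.5, 65.2 and 60.2 CPM in baicalin. The gap between the groups was wide compared with the spread within either. Group means were 32.6 ± 1.34 and 62.0 ± 2.80 CPM (SD, n = 3 each). This is a rise of 1.90-fold (log2 fold change 0.93, SE 0.060, edgeR adjusted p = 1.43e-19).

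Spred1 (ENSMUSG00000027351, chromosome 2, 117121374 to 117182279) had 54.5, 61.4 and 57.6 CPM in DMSO and 72.2, 81.0 and 79.7 CPM in baicalin. All baicalin libraries were higher than all DMSO libraries. The rise of 1.34-fold (log2 fold change 0.43, SE 0.053, edgeR adjusted p = 8.97e-10) was smaller than that of Spred2 on this scale. With the length and GC trends removed Spred1 stood at 0.75 and Spred2 at 0.83. The Spred2 promoter, shown because this gene had the second largest rise of the set, held 1 GC box and 1 dioxin response element core.
Spred2 promoter, chr11:19924192-19924491, plus strand: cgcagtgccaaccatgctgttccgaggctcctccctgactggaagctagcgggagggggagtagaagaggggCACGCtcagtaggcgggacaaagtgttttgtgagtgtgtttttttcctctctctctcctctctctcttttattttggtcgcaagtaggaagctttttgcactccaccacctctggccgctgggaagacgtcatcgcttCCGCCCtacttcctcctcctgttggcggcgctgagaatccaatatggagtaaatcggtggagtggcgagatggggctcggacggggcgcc

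**Figure D2:**
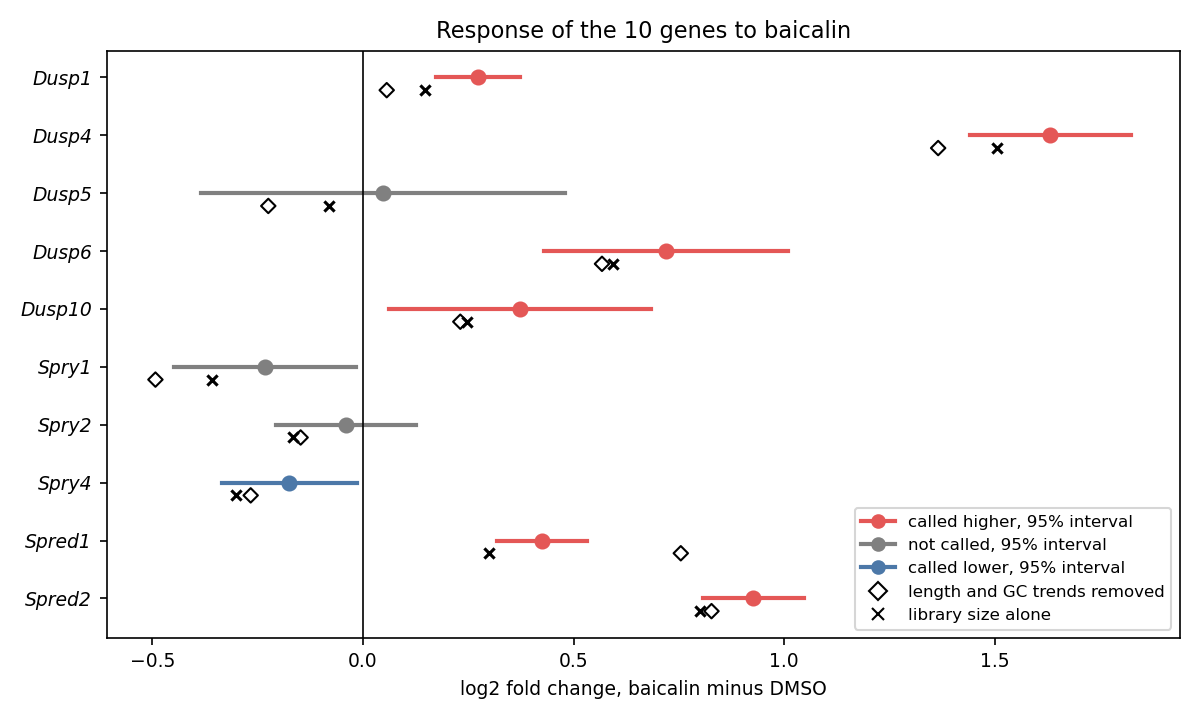
The log2 fold change (horizontal axis, baicalin minus DMSO) of each gene with its 95% interval from edgeR, coloured by call, with open diamonds for the fit with length and GC trends removed and crosses for scaling by library size alone. Dusp4 lies furthest to the right at 1.63, and the diamond of Dusp1 lies near 0 at 0.056.

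Fold changes in these libraries moved with transcript composition. Across 13714 tested genes with a known transcript, the log2 fold change correlated with GC content (Spearman's rho 0.31) and, inversely, with exon length (rho -0.19). Genes are not independent replicates, so no p is given. The median log2 fold change was -0.30 in the lowest of 4 equal bins of GC content and 0.19 in the highest. Among the 10, GC content ran from 41.2% in Spred1 to 56.7% in Dusp5 and Spry1, beside a median of 49.4% over the tested genes. Removing these trends, which also removes any response that follows length or GC, left Dusp4 (1.37), Dusp6 (0.57), Spred1 and Spred2 called higher. It left Spry4 (-0.27, adjusted p = 0.00239) and Spry1 called lower, and Dusp1, Dusp5, Dusp10 and Spry2 not called. Whether the trends are technical was not tested.

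Levels of different genes were compared per length, on the authors' FPKM scale (fragments per kilobase, scaled to library size). In DMSO the order was Dusp1 (33.9 ± 2.66 FPKM), Spry2 (10.4 ± 0.32), Spred1 (8.60 ± 0.50), Spred2 (7.11 ± 0.28), Spry4 (5.59 ± 0.30), Spry1 (5.10 ± 0.31), Dusp4 (3.50 ± 0.40), Dusp10 (1.63 ± 0.13), Dusp6 (1.61 ± 0.15) and Dusp5 (1.203 ± 0.0082), each with its SD over 3 libraries. Of the neighbours in that order, the ranges of Spry4 and Spry1 overlapped, as did those of Dusp10 and Dusp6. Within libraries, Spry4 was above Spry1 in all 3 DMSO libraries and Dusp10 above Dusp6 in 1. The median tested gene stood at 5.41 FPKM, so Dusp1 was 6.27 times that level and Dusp5 0.222 times.

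In baicalin Dusp1 stayed first at 41.4 ± 1.28 FPKM and Spred2 followed at 13.7 ± 0.56 FPKM. Spred1 (11.6 ± 0.65 FPKM), Dusp4 (10.9 ± 0.85 FPKM) and Spry2 (10.2 ± 0.58 FPKM) came next. Their ranges overlapped from each to the next, though this order held within each of the 3 baicalin libraries. Dusp4, below Spry1, Spry2 and Spry4 in DMSO, thus reached about the level of Spry2. Spry4 (5.005 ± 0.31 FPKM) and Spry1 (4.38 ± 0.64 FPKM) again overlapped, with Spry4 above in 2 of the 3 libraries. Dusp6 (2.67 ± 0.15 FPKM), Dusp10 (2.13 ± 0.19 FPKM) and Dusp5 (1.26 ± 0.16 FPKM) closed the order without overlap.

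**Figure D3:**
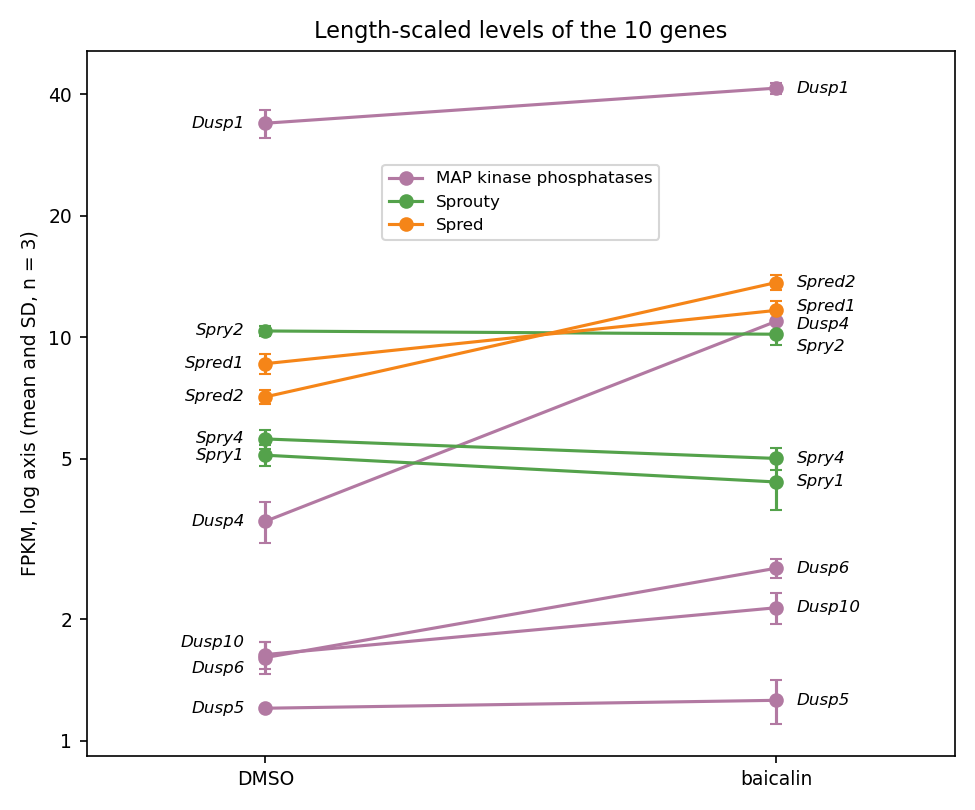
FPKM as deposited (vertical log axis, mean and SD of 3 libraries) in DMSO and baicalin, with lines joining each gene and colours for the 3 families. The line of Dusp4 climbs from 3.50 to 10.9 FPKM past the Sprouty genes Spry1 and Spry4, and that of Spred2 crosses Spred1 and Spry2.

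Summed over the 5 phosphatase genes, the level was 39.7, 40.7 and 45.2 FPKM in DMSO and 58.3, 58.7 and 58.2 FPKM in baicalin. Dusp1 made up 81.0% ± 0.73 of this sum in DMSO and 70.9% ± 2.04 in baicalin, and Dusp4 8.34% ± 0.51 and 18.7% ± 1.496 (SD, n = 3 each). The 2 Spred genes together went from 15.1, 16.1 and 16.0 FPKM to 24.3, 26.4 and 25.2 FPKM. For the 3 Sprouty genes the sum was 21.4, 21.2 and 20.6 FPKM in DMSO and 18.5, 20.5 and 19.6 FPKM in baicalin. The Spred sum was thus below the Sprouty sum in every DMSO library and above it in every baicalin library.

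Ratios between related genes in 1 library do not depend on the scaling between libraries, and 6 of them were compared. The log2 ratio of Spred2 to Spred1 counts was -0.78, -0.94 and -0.76 in DMSO and -0.26, -0.31 and -0.40 in baicalin. The groups did not overlap. With length and GC trends removed, which need not cancel in a ratio, the log2 fold changes of Spred1 (0.75) and Spred2 (0.83) lay closer together. Without that removal the difference of 0.50 is a 1.42-fold shift towards Spred2. The ratio of Dusp6 to Dusp4 went the other way by 0.91 log2 units, from -0.61, -1.07 and -1.10 to -1.81, -1.84 and -1.87. That of Dusp5 to Dusp4 was lower by 1.59 log2 units, with means of -1.68 ± 0.16 and -3.27 ± 0.24 (SD, n = 3 each). These 3 ratios each had p = 0.1 in a two-sided exact permutation test, the smallest that 3 against 3 samples allow, and an adjusted p of 0.2 over the 6 ratios, so none could pass 0.05. The ratios of Spry2 to Spry1 (difference 0.20, exact p = 0.2), Spry4 to Spry1 (0.068, exact p = 0.8) and Dusp10 to Dusp1 (0.093, exact p = 0.6) overlapped between the groups.

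**Figure D4:**
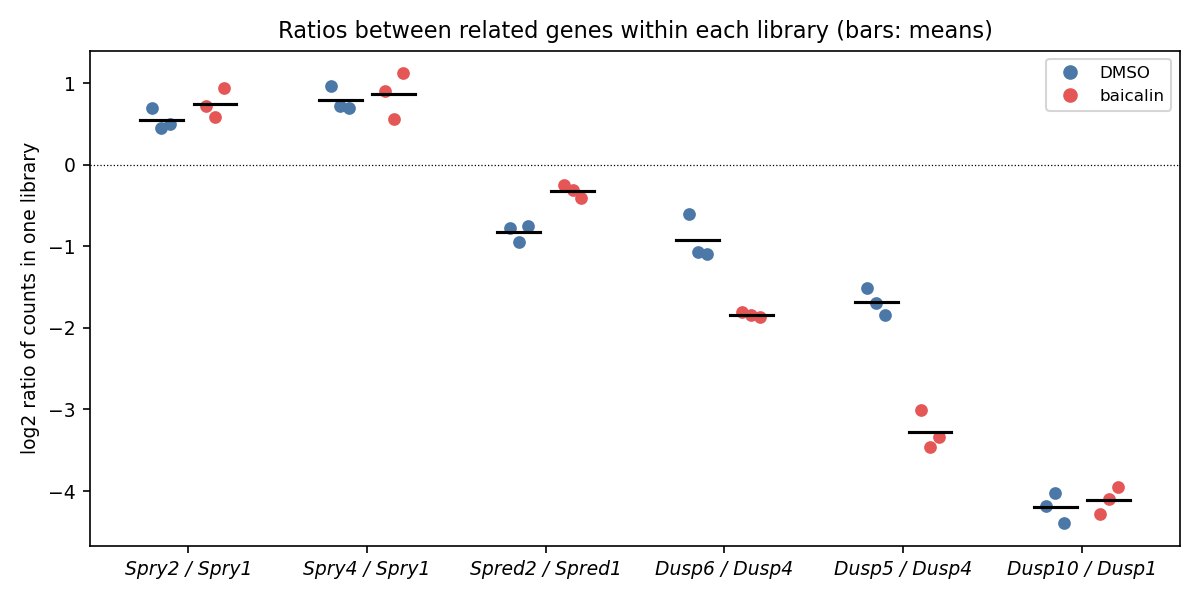
The log2 ratio of read counts (vertical axis) of 6 pairs of related genes in each library, with points for libraries and bars for group means. The ratios to Dusp4 drop in baicalin to about -1.84 for Dusp6 and -3.27 for Dusp5, and the Sprouty ratios overlap.

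In a list of transcripts often used as readouts of ERK output most were higher. These are RNA levels, and ERK activity itself was not measured in these libraries. This list was chosen with earlier results of these data known. It leaves out the 10 feedback genes, of which 6 rose, 1 fell and 3 were not called. Of its 15 genes 10 rose (33.6% of all tested genes did), 9 of them past 2-fold (5.24% of all). Another 1 fell and 4 were not called. The median log2 fold change of the list was 1.14. The AP-1 subunit gene Fosl1 had 27.8 ± 1.75 CPM in DMSO and 210.7 ± 0.63 CPM in baicalin (SD, n = 3 each). It rose 7.58-fold (edgeR adjusted p = 8.32e-45). Fosl1 and the gene Ccdc85b on the other strand have 1163 bp of exon in common, and Ccdc85b had 8129 reads beside its 12351. Phlda1 rose 5.42-fold, Myc 2.49-fold, the ephrin receptor gene Epha2 2.06-fold and Etv4, an ETS factor of the PEA3 group, 6.52-fold.

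The following are named after their values were seen. The other PEA3 genes rose as well, Etv5 by 4.31-fold and Etv1 by 2.20-fold, and Ier3 rose 8.72-fold, Ier2 1.72-fold and Egr2, at 1.12 ± 0.31 CPM in DMSO, 2.32-fold. Epha4 was the 1 that fell (1.67-fold). The immediate early genes Egr1 (46.6 ± 1.96 CPM in DMSO and 47.7 ± 4.30 CPM in baicalin, edgeR adjusted p = 0.678) and Fos (4.92 ± 0.58 and 6.11 ± 0.62 CPM, edgeR adjusted p = 0.0768) were not called, though Fos was called higher on dropping baicalin replicate 3 (edgeR adjusted p = 0.0461). Nor were Egr3 and the cyclin gene Ccnd1, whose log2 fold change was 0.077 and which has 1100 bp of exon in common with LTO1. Ccnd1 was called higher without the low-count filter (0.12, edgeR adjusted p = 0.0248) and on dropping DMSO replicate 1 (0.0423) or baicalin replicate 2 (0.0413).

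**Figure D5:**
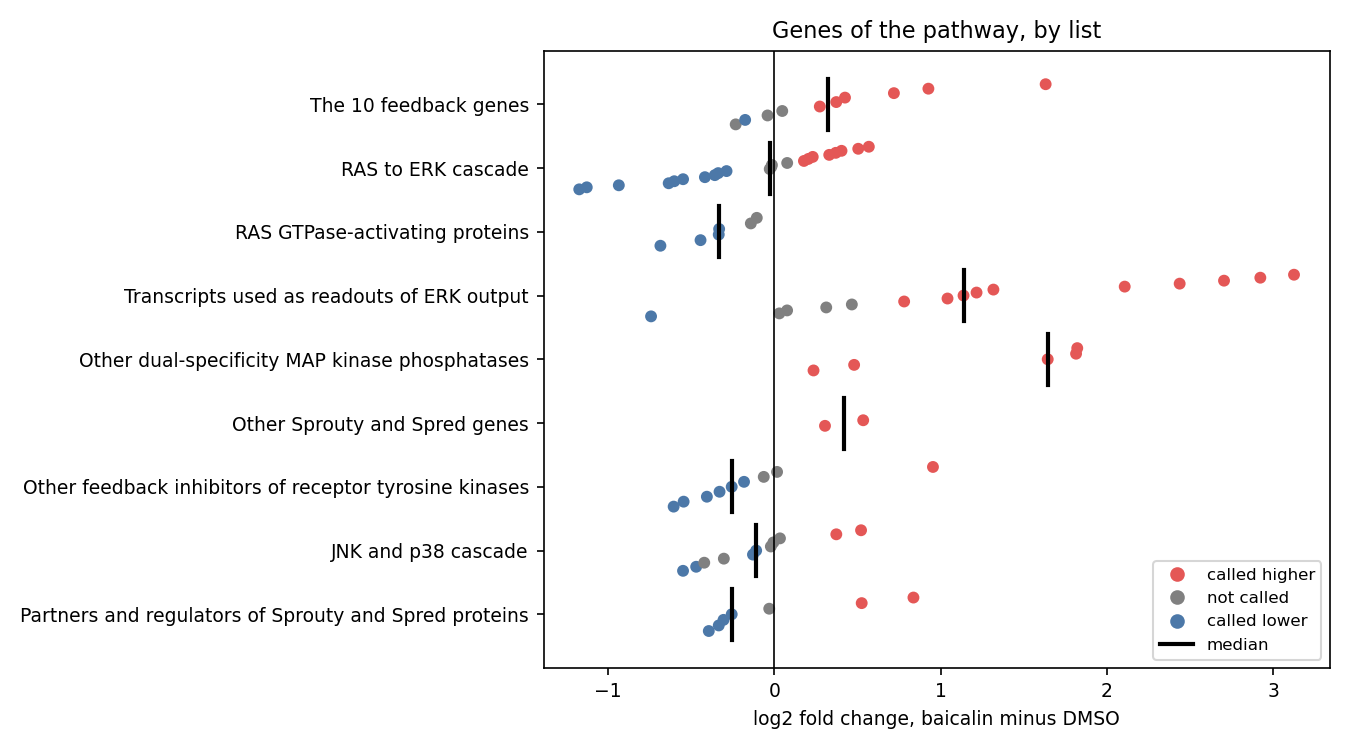
The log2 fold change (horizontal axis, baicalin minus DMSO) of each tested gene of 9 lists, coloured by call, with a bar for the list's median. The bars of the ERK readouts (1.14) and of the other MAP kinase phosphatases (1.64) lie furthest to the right. The latter is the value of Dusp2, which passed the read filter only with baicalin libraries counted.

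The phosphatase genes outside the 10 were higher too. All 5 tested (Dusp2, Dusp7, Dusp8, Dusp9 and Dusp16) rose, as did 33.6% of all genes, with a median log2 fold change of 1.64. The cytoplasmic ERK phosphatase gene Dusp7 went from 59.7 ± 1.01 to 70.3 ± 5.30 CPM (log2 fold change 0.24), and was 0.0096 and not called with length and GC trends removed (adjusted p = 0.882). With library size alone it was 0.11 and not called either (adjusted p = 0.0696). Dusp16, whose product prefers JNK and p38, rose 1.40-fold from 15.6 ± 0.91 CPM. Dusp2, Dusp8 and Dusp9, named after their values were seen, rose 3.13-fold, 3.54-fold and 3.52-fold from very low levels, with 28, 23 and 41 reads over the 3 DMSO libraries. In DMSO their lowest libraries had 4, 5 and 7 reads, and they passed the read filter only with baicalin libraries counted. Their rises carry that selection, and so does the median of 1.64, which is the value of Dusp2. The other Sprouty and Spred genes, Spry3 (1.45-fold) and Spred3 (1.24-fold), rose as well. The groups of Spred3 overlapped, and with library size alone it was 0.18 and not called (edgeR adjusted p = 0.137). Spred3 was also not called on dropping DMSO replicate 1 (edgeR adjusted p = 0.0766) or baicalin replicate 3 (0.0769), and it has 202 bp of exon in common with Ggn on the other strand.

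Feedback inhibitors of receptor tyrosine kinases from other families moved in both directions. Of 9 genes 1 rose and 6 fell, where 33.6% of all tested genes rose and 34.1% fell, with a median log2 fold change of -0.26. The one rise was that of Lrig1, which lowers the amount of EGF receptor, at 1.94-fold (221 ± 2.24 CPM in DMSO and 428 ± 14.0 CPM in baicalin, SD, n = 3 each). Errfi1, an inhibitor of the EGF receptor kinase, fell 1.46-fold, Lrig3 1.52-fold, Cbl 1.19-fold and Socs4 1.26-fold. With length and GC trends removed 3 were higher and 3 lower and the median was 0.064. Cbl (0.064, not called) and Socs4 (0.15, called) then lay on the other side of 0, whereas Lrig1, Lrig3 and Errfi1 kept their calls.

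The relay itself was split. Of 22 genes from receptors to ERK 8 rose and 10 fell, beside 67.7% of all genes called in either direction, with a median of -0.023. The PDGF receptor gene Pdgfra fell from 1427 ± 37.2 to 653 ± 17.4 CPM (SD, n = 3 each, 2.18-fold), the adaptor gene Gab1 fell 1.91-fold and the FGF receptor gene Fgfr1 rose 1.48-fold (705 ± 9.04 CPM in DMSO and 1046 ± 7.54 CPM in baicalin). The kinase gene Braf fell 1.55-fold and was not called with length and GC trends removed (-0.13, adjusted p = 0.0534). Egfr, the MEK genes Map2k1 and Map2k2, and Mapk3 are named after their values were seen. Egfr fell 2.25-fold, Map2k1 rose 1.29-fold and Map2k2 1.32-fold, and Mapk3, which encodes ERK1, rose 1.17-fold, a direction that flipped with length and GC trends removed (-0.043, not called).

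Among 6 RAS GTPase-activating proteins, which switch RAS off, 4 fell and 2 were not called, with a median of -0.33. The share called is near the 67.7% of all tested genes, and 34.1% of all genes were lower. Nf1, which encodes the Spred partner neurofibromin, had 91.0 ± 3.10 CPM in DMSO and 72.2 ± 3.59 CPM in baicalin (SD, n = 3 each). It fell (log2 fold change -0.33, edgeR adjusted p = 5.04e-08), and Rasa1 fell 1.61-fold, Rasa3 1.36-fold and Rasa2 1.26-fold. Rasa1 has 12 bp of exon in common with Ccnh on the other strand. With length and GC trends removed Nf1 (0.14, adjusted p = 0.00741) and Rasa2 (0.37) were called higher instead, so that their direction rests on that choice, and the list's median was 0.036. Among 7 partners and regulators of Sprouty and Spred proteins, Nf1 and Cbl included, 2 rose and 4 fell, beside 33.6% and 34.1% of all genes. Siah2, a ubiquitin ligase that targets Sprouty, rose 1.79-fold and Ppp2ca, the catalytic subunit of protein phosphatase 2A, 1.44-fold, while Cav1 fell 1.31-fold and the kinase gene Dyrk1a 1.24-fold. With length and GC trends removed Nf1, Siah2 (0.58) and Ppp2ca (0.75) were called higher, and Cav1 (-0.31) and Dyrk1a (-0.17) lower. The median of these partners went from -0.26 to 0.064.

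In the JNK and p38 relay, on which Dusp1 and Dusp10 act, 2 of 11 tested genes rose and 4 fell, with a median of -0.11. The share called is below the 67.7% of all tested genes. Mapkapk2, a kinase activated by p38, rose 1.44-fold and Map2k3, which activates p38, 1.30-fold. Mapk8, which encodes JNK1, fell 1.38-fold, Mapkapk3 1.46-fold and the p38 gene Mapk14 1.08-fold. The value of Mapk8 was 0.099 and not called with length and GC trends removed. Mapk14 was not called on dropping DMSO replicate 3 (edgeR adjusted p = 0.0819), baicalin replicate 2 (0.0731) or baicalin replicate 3 (0.216), nor by DESeq2 (adjusted p = 0.0945).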

How the data were processed

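RNA from 6 samples was analysed, 3 given DMSO and 3 given baicalin, grouped by the treatment label. For the deposited counts the authors used featureCounts 1.5.0-p3 (series design text). The submitters' processing notes name mm10. The authors then derived the deposited FPKM from those counts and gene length, as the same text says. Aligner, annotation and strand setting: not given in the sources used here, so genes with overlapping exons are uncertain. Names and coordinates were checked against GENCODE M21 (same assembly), which holds 54495 of the 54532 identifiers.

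Counts were tested across all 13728 genes passing filterByExpr with edgeR 4.0.16 (R 4.3.3), TMM normalization and robust quasi-likelihood fits with treatment as the only term. A gene is called at a Benjamini-Hochberg adjusted p under 0.05. The fit was tested on simulated data. Alternatives were DESeq2 1.42.0, limma-voom (limma 3.58.1), RLE factors, library size alone, no filter or a stricter one, a replicate block, limma-trend with log2(FPKM + 1) or log2(FPKM + 0.1), removal of length and GC trends (lowess, span 0.3) and leaving out each library. The genes and lists were chosen with earlier results of these data known. From each list up to 5 called genes with a mean of at least 5 CPM were named by the smallest p, and any further gene is marked as chosen later. Some genes of the lists are not reported here by name.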

Additional observations from a re-analysis of the deposited data

How the results depend on the processing

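Across the 17 alternatives Dusp4 (log2 fold change from 1.37 to 1.72), Dusp6 (0.50 to 0.80), Spred1 (0.30 to 0.75) and Spred2 (0.80 to 0.97) stayed called higher, and Spry2 and Dusp5 were called in none. Dusp5 lay below 0 with library size alone (-0.079), with length and GC trends removed (-0.22) and without baicalin replicate 1 (-0.014, with a highest value of 0.16 on leaving out a library), and Spry2 above 0 without baicalin replicate 1 (0.021, lowest -0.062). The call of Dusp1 was lost with length and GC trends removed (0.056). That of Dusp10 was lost with library size alone (0.25), DESeq2 (0.39), limma-trend on log2(FPKM + 1) without a filter (0.25), length and GC trends removed (0.23) and 4 left-out libraries (0.33 to 0.46 over all 6). That of Spry4 was lost with DESeq2 (-0.16), no low-count filter (-0.14), limma-trend on log2(FPKM + 1) with or without a filter (-0.14 each) and log2(FPKM + 0.1) (-0.16), and on leaving out 4 libraries (-0.21 to -0.13 over all 6). Spry1 was called lower with RLE factors (-0.24), library size alone (-0.36), the stricter filter (-0.24), the replicate block (-0.24), length and GC trends removed (-0.49) and without 2 of the libraries (-0.35 to -0.14 over all 6). Of the 10 genes, those called lower numbered 2 under each of those first 5 settings, 0 with DESeq2, no low-count filter and all 3 limma-trend fits, and 0 to 1 on leaving out a library.

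Replicate numbers showed no clear pairing of the samples, with correlations of same-numbered deviations of 0.031, 0.035 and -0.0015. DMSO replicates 1 and 2 correlated best with the baicalin library of the same number, and DMSO replicate 3 with baicalin replicate 1 (0.023). The replicate block gave 9391 called genes instead of 9294. Library size alone gave the median gene a log2 fold change of -0.13 and gave 3472 higher and 5811 lower genes instead of 4618 and 4676. With it Egr1 (-0.10) and Ccnd1 (-0.050) lay below 0. With length and GC trends removed, 2 RAS GTPase-activating proteins were higher and 2 lower, and 3 of the other feedback inhibitors higher and 3 lower. Of the partners of Sprouty and Spred, 2 were lower, and Nf1, Siah2 and Ppp2ca were higher. Only 1 of the other Sprouty and Spred genes was higher, as Spry3 had no annotated transcript there. That fit also reversed Mapk3 (-0.043), Nf1 (0.14), Rasa2 (0.37), Egr1 (-0.12), Ccnd1 (-0.011), Cbl (0.064), Socs4 (0.15) and Mapk8 (0.099). Of the other Sprouty and Spred genes 1 was called with library size alone and with each limma-trend fit, and 1 to 2 on leaving out a library. The other MAP kinase phosphatases called higher numbered 2 with limma-trend after the FPKM filter at either pseudocount. Dusp2, Dusp8 and Dusp9 did not pass that filter and were not tested there. JNK and p38 genes called lower numbered 2 with DESeq2, no low-count filter and both filtered limma-trend fits, 0 with the unfiltered one, and 2 to 4 on leaving out a library. Egr1 was -0.011 without baicalin replicate 3 and at most 0.12. The ratio of Spry4 to Spry1 ranged from -0.062 to 0.22 and that of Dusp10 to Dusp1 from -0.0035 to 0.18 on leaving out a library, and the latter was -0.033 on the log2(FPKM + 1) scale. Apart from genes missing from a fit, the cause was not tested for any of these.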
